A study of Mus musculus with 6 samples.

Results

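The genes described here are 35 genes of mitosis and the mitotic spindle, followed across the RNA-seq libraries of treated and untreated mouse embryonic fibroblasts. They were chosen by name, as rows of the deposited gene table whose symbol is one of the 35, and all 35 were found among its 48897 genes. All 35 also passed the filter on low counts, which 18563 genes passed. The fibroblasts were of the C57BL/6 strain, at passages 5 to 7. The TC cells received TNF-α with cycloheximide. The TCZ cells received the same pair and also z-VAD-fmk. Control cells received PBS. Cycloheximide stops protein synthesis, TNF-α is a cytokine of inflammation that can trigger cell death, and z-VAD-fmk inhibits caspases, the proteases of apoptosis. Each group had 2 libraries of poly(A) RNA. No group received TNF-α or cycloheximide alone, so the effects of the pair cannot be told apart, and the sources used here give no doses or times. The labels do not say whether the 2 libraries of a group are separate cultures. The p-values therefore measure only a spread between libraries that may be technical.

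A cell enters mitosis when CDK1 with cyclin A or B is switched on, with the help of the phosphatase CDC25C and the kinases PLK1 and Aurora A. Chromosomes then attach to spindle microtubules through kinetochores, while the spindle checkpoint holds back the anaphase-promoting complex until each chromosome is attached. Release of the checkpoint frees separase to cut cohesin, and the cell divides through a cleavage furrow. Messenger RNAs of these proteins are made mainly in G2 and M phase, so in a culture they are known as a readout of how many cells cycle. Transcription of many of them is known to run through the cell cycle genes homology region (CHR) of the promoter, which the MuvB core of the DREAM complex binds, and through CCAAT boxes bound by NF-Y.

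Promoters of 5 genes are printed below because they carry both kinds of element and belong to genes with different behaviour: Plk1, Espl1 and Cdk1 were lower in both treatments, whereas Top2a and Prc1 were higher in TCZ. Each window runs from 250 bases before to 50 bases after the RefSeq start (build GRCm38.p6), 5′ to 3′ on the gene's strand. Capitals mark the CHR letters TTTGAA or TTTAAA and the NF-Y letters CCAAT, on either strand.
Plk1, chr7:122159185-122159484, plus strand: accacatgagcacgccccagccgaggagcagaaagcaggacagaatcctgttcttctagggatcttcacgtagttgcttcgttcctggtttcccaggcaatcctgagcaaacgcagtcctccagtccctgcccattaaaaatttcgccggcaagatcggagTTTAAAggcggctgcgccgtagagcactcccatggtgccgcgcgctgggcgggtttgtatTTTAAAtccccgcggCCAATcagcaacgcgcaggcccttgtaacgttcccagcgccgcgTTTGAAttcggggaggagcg
Espl1, chr15:102296043-102296342, plus strand: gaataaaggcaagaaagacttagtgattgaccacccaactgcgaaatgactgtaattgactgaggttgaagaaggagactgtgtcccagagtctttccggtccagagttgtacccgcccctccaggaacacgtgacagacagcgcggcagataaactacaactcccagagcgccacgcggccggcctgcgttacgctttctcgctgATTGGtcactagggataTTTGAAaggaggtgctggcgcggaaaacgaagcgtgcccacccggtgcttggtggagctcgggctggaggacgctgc
Cdk1, chr10:69352863-69353162, minus strand: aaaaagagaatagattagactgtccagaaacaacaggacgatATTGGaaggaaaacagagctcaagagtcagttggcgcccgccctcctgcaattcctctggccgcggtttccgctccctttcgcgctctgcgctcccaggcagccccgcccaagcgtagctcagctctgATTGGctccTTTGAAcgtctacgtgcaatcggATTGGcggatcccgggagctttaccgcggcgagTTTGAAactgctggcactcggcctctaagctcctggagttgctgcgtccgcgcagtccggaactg
Top2a, chr11:99024140-99024439, minus strand: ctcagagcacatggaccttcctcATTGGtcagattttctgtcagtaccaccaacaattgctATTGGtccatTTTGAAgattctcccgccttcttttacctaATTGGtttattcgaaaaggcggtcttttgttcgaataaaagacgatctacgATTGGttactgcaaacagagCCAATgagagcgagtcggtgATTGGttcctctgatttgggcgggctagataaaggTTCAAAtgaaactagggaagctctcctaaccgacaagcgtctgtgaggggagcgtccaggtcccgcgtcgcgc
Prc1, chr7:80294201-80294500, plus strand: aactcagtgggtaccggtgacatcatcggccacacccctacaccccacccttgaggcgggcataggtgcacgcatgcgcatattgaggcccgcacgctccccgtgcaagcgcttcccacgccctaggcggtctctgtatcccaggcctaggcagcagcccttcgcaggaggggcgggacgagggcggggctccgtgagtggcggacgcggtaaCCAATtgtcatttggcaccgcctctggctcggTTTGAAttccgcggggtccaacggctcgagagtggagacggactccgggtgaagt

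RefSeq windows were found by symbol for 28 of the 35 genes, with 30 windows in all, since Ect2 and Prc1 have a pair of overlapping windows each. Ccna2, Aurkb, Cdc25c, Tpx2, Kif20a, Incenp and Foxm1 had no entry. TTTGAA was held by 20 of the 28 genes and by 73.3% of their windows, against 17.9% of all 32851 windows. TTTAAA was held by 9 genes and by 30.0% of their windows, against 13.2% of all windows. CCAAT was held by 21 genes and by 76.7% of their windows, against 37.4% of all windows. Both a CHR form and CCAAT stood in 70.0% of the windows of these genes and in 10.7% of all windows. No matches of different motifs overlapped. In 19 of the 20 genes with TTTGAA, a match lay between 100 bases before and 50 bases after the start. For 23 of the 28 genes the RefSeq start lay within 55 bases of the start in the deposited table. The Kif2c window lay 3852 bases away from it.

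**Figure D1:**
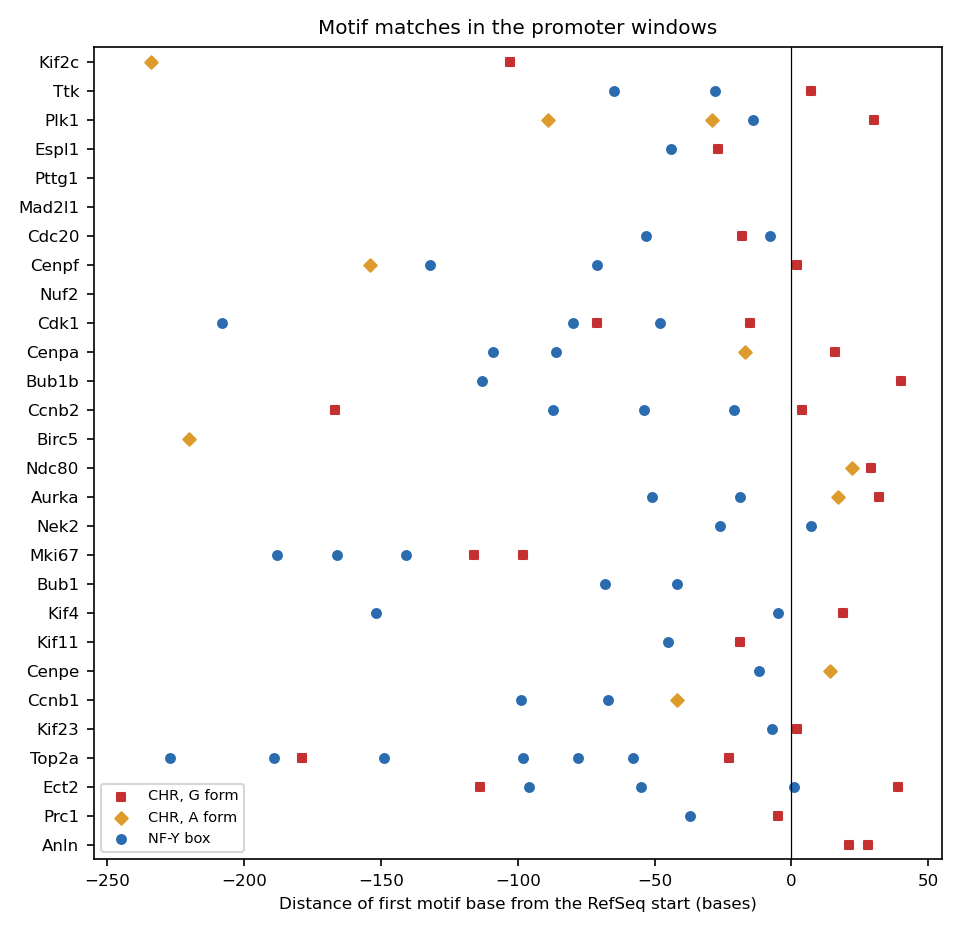
Positions of the CHR letters TTTGAA and TTTAAA and of the NF-Y letters CCAAT in the promoter windows of the 28 genes with a RefSeq entry, as distance in bases from the start site. Of the 20 genes that hold TTTGAA, 19 have a match between -100 and 50. Positions were not counted over all windows, so this share has no background.

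The 6 libraries held 24922627 to 52909926 counted reads, and control 2 and TCZ 2 were the shallowest. Counts of single members ran between 73 reads for Pttg1 and 16393 reads for Mki67. Levels below are counts per 1000000 reads (CPM) scaled by TMM factors, with a value for each library. Markers of fibroblasts were high in every library, with a sum over 10 genes of 32716.5 to 33079.4 CPM in TC, 34259.5 to 37220.2 CPM in TCZ and 34240 to 37015 CPM in control cells, and none was at 0. Of these, 6 were lower and 2 higher in TC, with Pdgfrb at -1.75 and Fn1 at 0.41 (log2 fold change), and 2 were lower and 1 higher in TCZ, with Pdgfra at -2.67 and Col3a1 at 0.28. In TCZ the split was 2 lower and 4 higher with RLE size factors, and 7 lower and 0 higher with library totals as the only scaling. Pdgfrb was at 0.88 and Pdgfra at -1.93 in TCZ against TC. Sums over 8 epithelial markers were 75.8 to 82.6 CPM in TC, 13.6 to 17.7 CPM in TCZ and 16.8 to 19.4 CPM in control cells. Krt19, at 2.11 in TC against control and -2.30 in TCZ against TC, carried most of each sum, Epcam and Cdh1 were under 1 CPM in every library, and Esrp1 was at 0 in 5 libraries. Of the 6 epithelial markers tested against control, 5 were higher and 0 lower in TC, and 1 was higher and 1 lower in TCZ. Sums over 7 endothelial markers were 141 to 148 CPM in TC, 56.6 to 57.6 CPM in TCZ and 12.6 to 13.2 CPM in control cells, mostly from Kdr, at 3.92 in TC and 2.097 in TCZ against control and -1.82 in TCZ against TC. Tie1 was at 0 in 5 libraries, and Pecam1 was at 10.8 to 10.9 CPM in TCZ and under 1 CPM elsewhere. Of the 6 endothelial markers tested against control, 2 were higher and 1 lower in TC, and 3 were higher and 0 lower in TCZ. Sums over 8 leukocyte markers were 12.0 to 14.5 CPM in TC, 24.5 to 27.2 CPM in TCZ and 15.5 CPM in control cells, and none was at 0. Of the 8 leukocyte markers tested against control, 1 was higher and 1 lower in TC, and 3 were higher and 1 lower in TCZ. In TCZ against TC, 2 were higher and 0 lower. Lyz2 was at 0.74 in TCZ against control and 1.04 in TCZ against TC. Sums over 5 muscle markers were 173 to 175 CPM in TC, 181 to 194 CPM in TCZ and 201 to 218 CPM in control cells, nearly all from Acta1 (-0.58 in TC against control, 0.43 in TCZ against TC) and Des (0.55 and -0.75), and Myod1, Myog and Ckm were under 1 CPM throughout. The part of these differences in the results below was not tested.

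Most of the mitotic genes were lower in both treatments. In TC cells 28 of the 35 were lower than in control cells, 2 were higher and 5 did not pass the test. In TCZ cells 23 were lower, 2 were higher and 10 did not pass. A gene passed at an adjusted p under 0.05 in edgeR's quasi-likelihood test, with Benjamini-Hochberg adjustment over all 18563 genes tested. Among all genes tested, 29.2% were lower and 31.6% higher in TC, and 28.6% were lower and 31.5% higher in TCZ, where the split over all genes was 5851 higher and 5313 lower, and 4556 higher and 7019 lower with library totals as the only scaling. The median log2 fold change of the 35 genes was -0.49 in TC and -0.41 in TCZ, against 0.02 and 0.05 over all genes tested. Their summed level was 2064 and 2006 CPM in the TC libraries, 2121 and 2108 CPM in the TCZ libraries, and 2568 and 2405 CPM in the control libraries. Fewer dividing cells and less of these RNAs per cell cannot be told apart in bulk RNA. Both treatments were set against the same control libraries, so the comparisons are not independent.

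**Figure D2:**
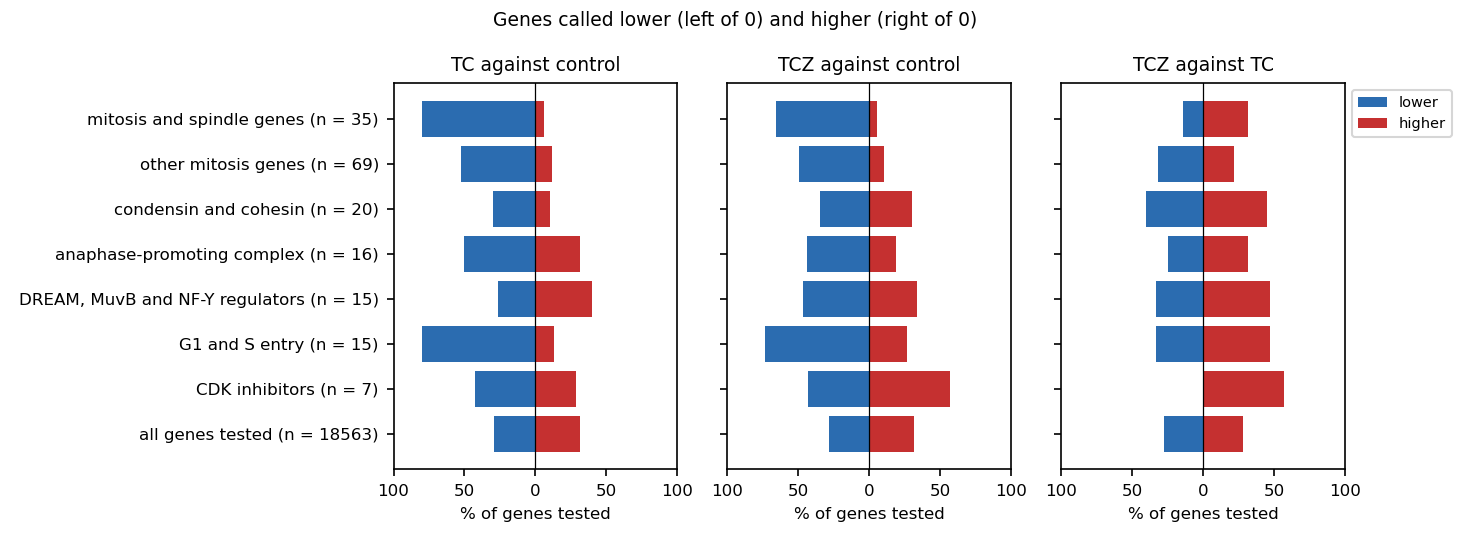
Share of genes called lower and higher, in percent, among the 35 mitotic genes, the other cell cycle lists and all genes tested, for the 2 treatments against control and for TCZ against TC. In TC against control 80.0% of the mitotic genes were lower, beside 29.2% of all genes tested.

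The falls differed in size between genes. In TC, 7 of the 28 fell at least 2-fold, and in TCZ 3 of the 23 did. Kif2c fell most in TC, to 36.2% of the control level, and Espl1 fell most in TCZ, to 22.9% of the control level. The genes lower in both treatments numbered 22, and 3 genes (Ccnb1, Kif23 and Ect2) passed in no comparison. The 2 genes higher in TC, Prc1 and Anln, became 1 without control 2 and without TC 2. The 2 genes higher in TCZ, Prc1 and Top2a, became 1 without control 2 and without TCZ 1, and 0 with library totals as the only scaling. With no low-count filter, Bub1, Cenpe, Kif11, Kif4 and Mki67 lost the call in TC, and Cenpe, Ndc80 and Prc1 lost it in TCZ.

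**Figure D3:**
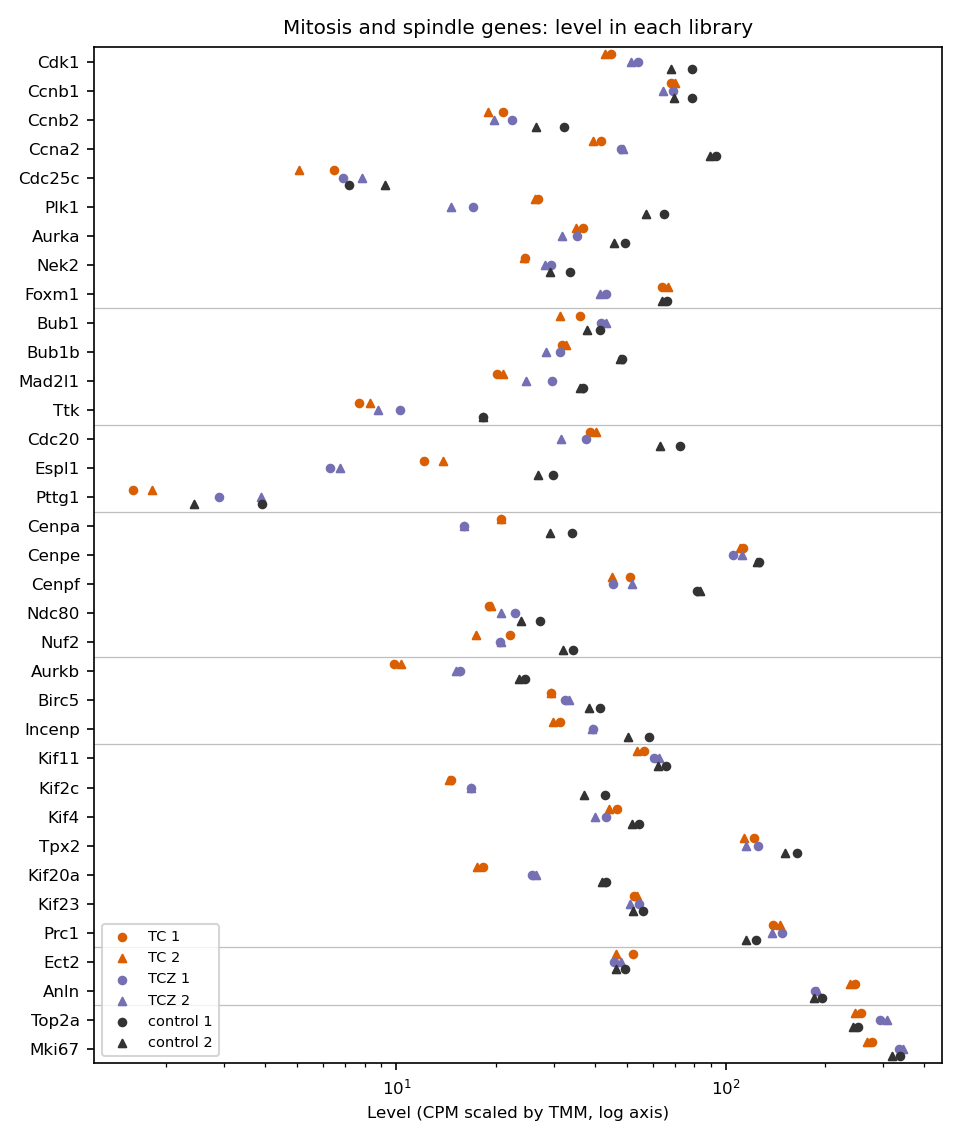
Level of each of the 35 genes in each library, in CPM scaled by TMM on a log axis, with TC, TCZ and control libraries in separate colours and the genes grouped by role. For Plk1 the TCZ libraries sit at 17.1 and 14.6, the TC libraries at 27.0 and 26.4, and the control libraries at 64.7 and 57.3.

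Of the 9 genes of mitotic entry, 7 fell in TC and 6 fell in TCZ. Plk1, the Polo-like kinase that drives entry, spindle assembly and cytokinesis, lies at chr7:122159435-122169884 on the plus strand. Its level was 27.0 and 26.4 CPM in TC, 17.1 and 14.6 CPM in TCZ, and 64.7 and 57.3 CPM in control cells. The 3 groups did not overlap, with TCZ lowest. Such separation was common among all 18563 genes tested, so it does not set a gene apart, here or below. The TC libraries were all above control for 7563 genes and all below for 7210. These counts were 7546 and 6907 in TCZ against control, and 7437 and 7133 in TCZ against TC. The log2 fold change was -1.20 ± 0.09 (SE, adjusted p = 6.32e-11) in TC and -1.93 ± 0.09 (adjusted p = 4.76e-14) in TCZ. Cdk1, the catalytic kinase of entry, had 44.9 and 43.1 CPM in TC, 54.2 and 51.5 CPM in TCZ, and 78.7 and 68.1 CPM in control cells. Its log2 fold changes were -0.74 ± 0.08 (adjusted p = 3.9e-08) in TC and -0.48 ± 0.08 (adjusted p = 2.37e-05) in TCZ.

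The cyclins that activate CDK1 did not move alike. Ccna2, cyclin A2, had 41.9 and 39.5 CPM in TC, 48.1 and 48.6 CPM in TCZ, and 93.1 and 89.7 CPM in control cells. Its log2 fold changes were -1.17 ± 0.07 (adjusted p = 5.39e-12) in TC and -0.92 ± 0.07 (adjusted p = 3.41e-10) in TCZ. Ccnb2, cyclin B2, had 21.1 and 19.0 CPM in TC, 22.5 and 19.8 CPM in TCZ, and 32.2 and 26.5 CPM in control cells, and it fell in both. Ccnb1, cyclin B1, had 68.0 and 69.9 CPM in TC, 69.4 and 64.6 CPM in TCZ, and 79.1 and 69.8 CPM in control cells. The TC libraries overlapped the control libraries, and Ccnb1 did not pass in TC (adjusted p = 0.213) or in TCZ (adjusted p = 0.098). Ccnb1 was called lower under several alternatives. In TC it passed with a term for control 2 and TCZ 2 (-0.18, adjusted p = 0.0171), with both of these libraries left out (-0.20, adjusted p = 0.0151) and with library totals as the only scaling (-0.26, adjusted p = 0.000827). In TCZ it passed with the same 3 settings (-0.15, adjusted p = 0.0257, then -0.19, adjusted p = 0.0482, and -0.35, adjusted p = 4.91e-05) and without control 2 (-0.26, adjusted p = 0.0216). Ccnb1 and Ccnb2 have annotated pseudogenes and Ccna2 shares exon sequence with Exosc9 on the opposite strand, and the sources used here do not say how such reads were counted.

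Foxm1, the transcription factor that drives many G2 and M phase genes, was lower in TCZ than in control and in TC cells. It had 64.1 and 66.6 CPM in TC, 43.3 and 41.4 CPM in TCZ, and 66.4 and 63.9 CPM in control cells. The TC and control libraries overlapped, with a log2 fold change of 0.0035 ± 0.072 (adjusted p = 0.973) in TC, which became -0.14 (adjusted p = 0.0452) with library totals as the only scaling. In TCZ the log2 fold change was -0.62 ± 0.07 (adjusted p = 2.17e-07). Aurka, the Aurora kinase of centrosomes and spindle poles, had 36.9 and 34.996 CPM in TC, 35.4 and 31.8 CPM in TCZ, and 49.4 and 45.8 CPM in control cells, and fell in both. Nek2, a kinase that separates centrosomes, had 24.6 and 24.5 CPM in TC, 29.4 and 28.3 CPM in TCZ, and 33.8 and 29.2 CPM in control cells. It fell in TC (log2 fold change -0.37 ± 0.09, adjusted p = 0.000918) and did not pass in TCZ (-0.13 ± 0.09, adjusted p = 0.21). Nek2 lost its call in TC without control 1 (-0.25, adjusted p = 0.0542) and passed in TCZ without control 2 (-0.24, adjusted p = 0.0497) and with library totals (-0.33, adjusted p = 0.00118). Cdc25c, the phosphatase that removes the inhibitory phosphates of CDK1, was low, with 6.49 and 5.07 CPM in TC, 6.88 and 7.86 CPM in TCZ, and 7.17 and 9.22 CPM in control cells. Its fall in TC (-0.49 ± 0.16, adjusted p = 0.0112) lost the call without control 2 (-0.32, adjusted p = 0.178) and without TC 2 (-0.32, adjusted p = 0.126), and with a term for control 2 and TCZ 2 (-0.35, adjusted p = 0.0782).

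All 4 spindle checkpoint genes were lower in TC and 3 of them in TCZ. Ttk, the MPS1 kinase at the head of the checkpoint, had 7.68 and 8.29 CPM in TC, 10.2 and 8.77 CPM in TCZ, and 18.3 and 18.4 CPM in control cells. Its log2 fold changes were -1.20 ± 0.11 (adjusted p = 4.84e-09) in TC and -0.93 ± 0.11 (adjusted p = 3.11e-07) in TCZ. Mad2l1, the MAD2 protein that binds CDC20 in the checkpoint complex, had 20.2 and 21.1 CPM in TC, 29.7 and 24.7 CPM in TCZ, and 36.7 and 36.1 CPM in control cells. The TCZ libraries lay between the other two groups. Bub1b, the BUBR1 protein of the same complex, had 31.7 and 32.8 CPM in TC, 31.3 and 28.4 CPM in TCZ, and 48.6 and 47.7 CPM in control cells. Bub1, a kinetochore kinase, had 36.0 and 31.4 CPM in TC, 41.7 and 43.4 CPM in TCZ, and 41.5 and 37.8 CPM in control cells. It fell in TC by 0.24 ± 0.08 on the log2 scale (adjusted p = 0.0184) and did not pass in TCZ (0.10 ± 0.08, adjusted p = 0.326). The TC call of Bub1 was lost without control 1 (-0.16, adjusted p = 0.219), without TC 2 (-0.13, adjusted p = 0.338) and in DESeq2 (-0.22, adjusted p = 0.0524).

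The 3 genes of anaphase onset all fell in TC, and 2 fell in TCZ. Espl1, separase, the protease that cuts cohesin, lies at chr15:102296252-102324357 on the plus strand. It had 12.1 and 13.8 CPM in TC, 6.31 and 6.74 CPM in TCZ, and 29.8 and 26.8 CPM in control cells. As with Plk1, the groups did not overlap and TCZ was lowest, with log2 fold changes of -1.13 ± 0.10 (adjusted p = 2.57e-09) in TC and -2.13 ± 0.11 (adjusted p = 3.04e-13) in TCZ. Cdc20, the activator of the anaphase-promoting complex that the checkpoint holds, had 38.8 and 40.3 CPM in TC, 37.7 and 31.6 CPM in TCZ, and 72.4 and 63.1 CPM in control cells. Its log2 fold changes were -0.78 ± 0.09 (adjusted p = 6.81e-08) in TC and -0.96 ± 0.09 (adjusted p = 3.8e-09) in TCZ, and its exons overlap those of Elovl1 on the opposite strand. Pttg1, securin, which blocks separase until anaphase, was the least expressed of the 35 per length in control and TC cells. It had 1.59 and 1.81 CPM in TC, 2.88 and 3.89 CPM in TCZ, and 3.89 and 2.42 CPM in control cells. The TC libraries were below both other groups, while TCZ and control overlapped. Pttg1 fell in TC (-0.91 ± 0.27, adjusted p = 0.00622), and the call was lost without control 1 (-0.51, adjusted p = 0.23).

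The 5 centromere and kinetochore genes were lower in both treatments. Cenpa, the histone H3 variant that marks centromeres, had 20.75 and 20.76 CPM in TC, 15.99 and 16.003 CPM in TCZ, and 34.2 and 29.2 CPM in control cells. Its log2 fold changes were -0.61 ± 0.09 (adjusted p = 4.47e-06) in TC and -0.99 ± 0.10 (adjusted p = 7.57e-09) in TCZ. Cenpf, a large kinetochore protein, had 51.3 and 45.2 CPM in TC, 45.4 and 51.8 CPM in TCZ, and 81.7 and 83.2 CPM in control cells. Nuf2 and Ndc80 form part of the NDC80 complex, which grips the microtubule. Nuf2 had 22.2 and 17.4 CPM in TC, 20.6 and 20.8 CPM in TCZ, and 34.4 and 32.1 CPM in control cells. Ndc80 had 19.1 and 19.4 CPM in TC, 22.9 and 20.8 CPM in TCZ, and 27.3 and 23.9 CPM in control cells. The Ndc80 fall in TCZ (-0.23 ± 0.09, adjusted p = 0.0399) was smaller than that of Nuf2 (-0.69 ± 0.10, adjusted p = 4.63e-06), and the difference between the genes was not tested. The TCZ call of Ndc80 was lost without control 1 (-0.13), without TCZ 2 (-0.16) and with both control 2 and TCZ 2 left out (-0.26). It was also lost in DESeq2 (-0.20, adjusted p = 0.137) and with RLE size factors (-0.20, adjusted p = 0.0525). A stricter filter (-0.17, adjusted p = 0.0766) and no low-count filter (-0.25, adjusted p = 0.0991) removed it too.

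Cenpe, the kinesin that carries chromosomes to the spindle equator, had the smallest fall of the kinetochore genes. It had 112.9 and 110.8 CPM in TC, 105.5 and 112.1 CPM in TCZ, and 126.0 and 124.5 CPM in control cells. The log2 fold change was -0.16 ± 0.07 (adjusted p = 0.0499) in TC and -0.20 ± 0.07 (adjusted p = 0.0167) in TCZ. The TC call of Cenpe stood at the threshold and was lost when any single library was left out, with adjusted p-values between 0.0531 without TCZ 1 and 0.308 without TC 2. Its TCZ call was lost without control 1 (-0.20, adjusted p = 0.0573), without TC 1 (-0.21, adjusted p = 0.0508) and without TCZ 1 (-0.17, adjusted p = 0.135).

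The chromosomal passenger complex corrects faulty attachments and guides cytokinesis, and its 3 members here fell in both treatments. Aurkb, its kinase Aurora B, lies at chr11:69045625-69051664 on the plus strand. It had 9.82 and 10.3 CPM in TC, 15.6 and 15.2 CPM in TCZ, and 24.6 and 23.5 CPM in control cells. TC was lowest and no groups overlapped, with log2 fold changes of -1.26 ± 0.10 (adjusted p = 1.87e-10) in TC and -0.64 ± 0.10 (adjusted p = 5.54e-06) in TCZ. Incenp, the scaffold of the complex, had 31.3 and 30.0 CPM in TC, 39.6 and 39.4 CPM in TCZ, and 58.3 and 50.5 CPM in control cells, in the same order of groups. Birc5, survivin, its targeting subunit, had 29.5 and 29.4 CPM in TC, 32.5 and 33.4 CPM in TCZ, and 41.4 and 38.4 CPM in control cells. The TCZ call of Birc5 was lost without control 1 (-0.23, adjusted p = 0.0645).

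Among the 7 spindle motors and microtubule proteins, 5 fell in TC and 4 in TCZ, and 1, Prc1, rose in both. Kif2c, the microtubule depolymerase MCAK, lies at chr4:117159633-117182624 on the minus strand. It had 14.6 and 14.4 CPM in TC, 16.9 CPM in both TCZ libraries, and 42.9 and 37.1 CPM in control cells, with log2 fold changes of -1.47 ± 0.09 (adjusted p = 5.27e-12) in TC and -1.25 ± 0.09 (adjusted p = 1.06e-10) in TCZ. Kif20a, the MKLP2 kinesin that takes Aurora B to the midzone, had 18.3 and 17.6 CPM in TC, 25.8 and 26.6 CPM in TCZ, and 43.3 and 42.2 CPM in control cells. It fell in both (-1.25 ± 0.08, adjusted p = 1.1e-11 in TC and -0.71 ± 0.08, adjusted p = 1.23e-07 in TCZ), and its exons overlap those of Cdc23 on the opposite strand. Tpx2, which activates Aurora A on spindle microtubules, had 121.7 and 113.9 CPM in TC, 125.1 and 114.8 CPM in TCZ, and 164.7 and 151.0 CPM in control cells. Tpx2 fell in both treatments, with libraries of the treatments overlapping each other. Kif4, a chromosome-bound kinesin, had 46.8 and 44.2 CPM in TC, 43.2 and 40.03 CPM in TCZ, and 54.4 and 52.0 CPM in control cells. Its exons overlap those of Pdzd11 on the opposite strand, and a pseudogene of Kif4 is annotated. Kif11, the Eg5 motor that pushes the spindle poles apart, had 56.4 and 53.6 CPM in TC, 60.5 and 62.5 CPM in TCZ, and 65.7 and 62.5 CPM in control cells. Kif4 passed in both and Kif11 in TC only, and the test of TCZ against TC passed for neither (Kif4 -0.13 ± 0.08, adjusted p = 0.168, and Kif11 0.16 ± 0.07, adjusted p = 0.0675). With library totals as the only scaling, Kif11 was lower in TCZ than in control (-0.26, adjusted p = 0.00183) and Kif4 was lower in TCZ than in TC (-0.18, adjusted p = 0.0217). Kif11 was higher in TCZ than in TC with RLE size factors (0.17, adjusted p = 0.0343), the stricter filter (0.20, adjusted p = 0.00707) and a term for control 2 and TCZ 2 (0.17, adjusted p = 0.0407). In TC the calls of both were lost without control 1 (Kif4 -0.19, adjusted p = 0.113, and Kif11 -0.18, adjusted p = 0.104) and without TC 2 (Kif4 -0.18, adjusted p = 0.18, and Kif11 -0.18, adjusted p = 0.181), and that of Kif11 also without TC 1 (-0.26, adjusted p = 0.0516).

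The last 2 of the 7 motors and microtubule proteins, Prc1 and Kif23, are given with the 2 cleavage furrow genes, Ect2 and Anln. Prc1, which bundles antiparallel microtubules at the midzone, lies at chr7:80294451-80316259 on the plus strand. It had 139.5 and 145.7 CPM in TC, 147.8 and 138.6 CPM in TCZ, and 123.3 and 115.6 CPM in control cells. Both treatments were above both control libraries, with log2 fold changes of 0.26 ± 0.07 (adjusted p = 0.0043) in TC and 0.26 ± 0.07 (adjusted p = 0.00374) in TCZ, which were 0.11 (adjusted p = 0.0599) and 0.06 (adjusted p = 0.286) with library totals as the only scaling. The Prc1 call was also lost without control 2 (0.20 in each, adjusted p = 0.06 in TC and 0.0648 in TCZ), in TC without TC 2 (0.23, adjusted p = 0.0835) and in TCZ without TCZ 1 (0.20, adjusted p = 0.0635). Kif23, the MKLP1 kinesin of centralspindlin, had 52.7 and 53.7 CPM in TC, 54.4 and 51.1 CPM in TCZ, and 55.9 and 52.3 CPM in control cells, and all groups overlapped. Ect2, which activates RhoA at the furrow, had 52.4 and 46.3 CPM in TC, 45.9 and 48.1 CPM in TCZ, and 49.6 and 46.4 CPM in control cells, also with overlap. With library totals as the only scaling, Kif23 was lower in TC (-0.17, adjusted p = 0.0188) and TCZ (-0.24, adjusted p = 0.00238), and Ect2 in TCZ (-0.23, adjusted p = 0.0115). Anln, anillin, the furrow scaffold, lies at chr9:22331214-22389733 on the minus strand and had 246.0 and 238.4 CPM in TC, 186.9 and 188.7 CPM in TCZ, and 195.5 and 185.6 CPM in control cells. It rose in TC (0.35 ± 0.07, adjusted p = 0.000186) and did not pass in TCZ (-0.02 ± 0.07, adjusted p = 0.812), where it was lower with library totals as the only scaling (-0.22, adjusted p = 0.000784).

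The 2 abundant proteins of mitotic chromosomes differed as well. Top2a, topoisomerase II alpha, which untangles sister chromatids, lies at chr11:98992947-99024205 on the minus strand. It had 257 and 248 CPM in TC, 294 and 308 CPM in TCZ, and 252 and 243 CPM in control cells. The TCZ libraries were above all others, with a log2 fold change of 0.28 ± 0.07 (adjusted p = 0.00135) in TCZ, which was 0.09 (adjusted p = 0.157) with library totals as the only scaling. In TC it did not pass (0.03 ± 0.07, adjusted p = 0.739). Mki67, the Ki-67 antigen that coats mitotic chromosomes and is used to stain cycling cells, had 278 and 269 CPM in TC, 336 and 346 CPM in TCZ, and 338 and 320 CPM in control cells. It fell in TC (-0.27 ± 0.07, adjusted p = 0.00211), a call lost without TC 2 (-0.24, adjusted p = 0.084). In TCZ it did not pass (0.05 ± 0.07, adjusted p = 0.55), and it was lower with library totals as the only scaling (-0.15, adjusted p = 0.0127).

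**Figure D4:**
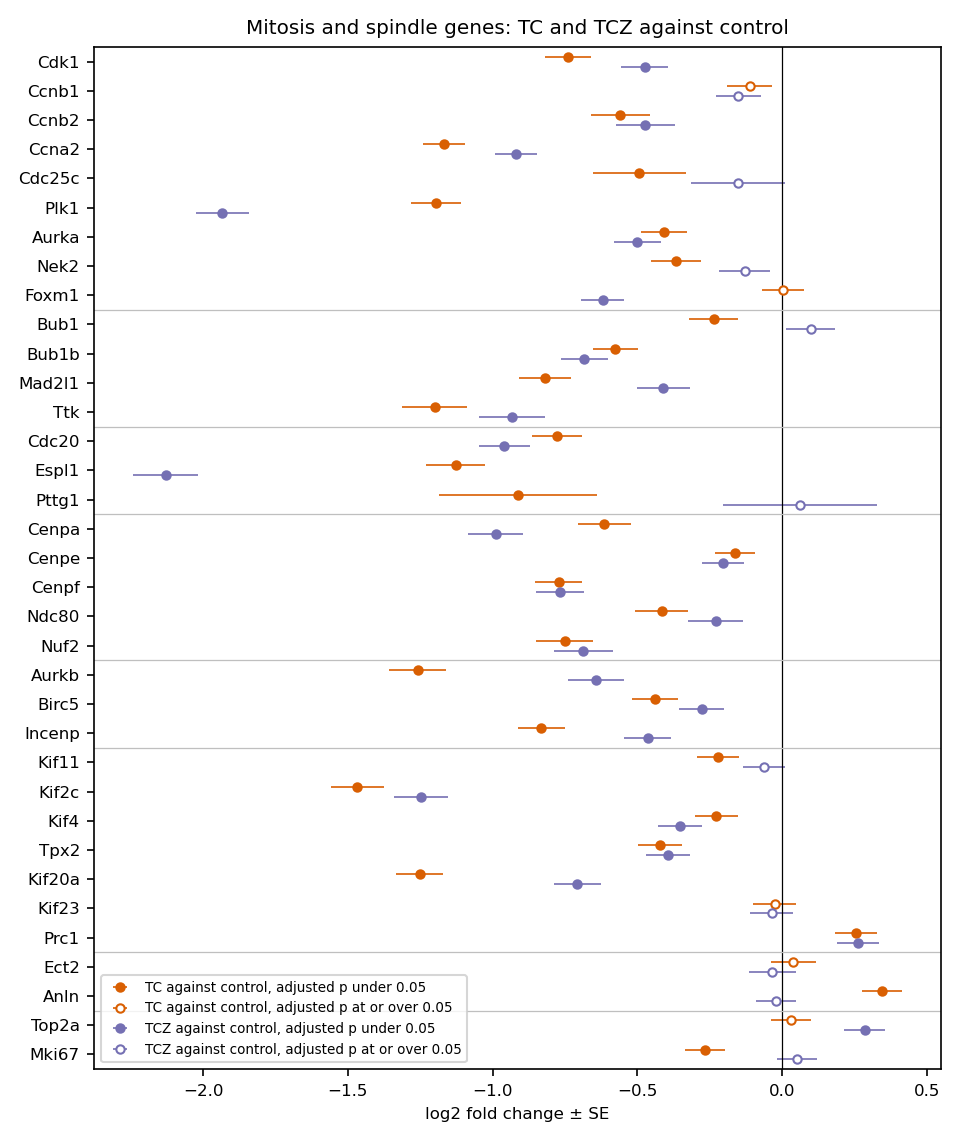
Log2 fold change of each of the 35 genes in TC against control and in TCZ against control, with standard errors as bars and the genes grouped by role. Most points lie left of 0, Espl1 (-2.13) and Plk1 (-1.93) in TCZ are the farthest left, and Prc1 lies right of 0 in both.

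The order of levels per gene length also differed between groups. By deposited RPKM, which divides by gene length and library total, Top2a was the highest of the 35 in every group. Its means were 47.2 RPKM in TC, 54.4 RPKM in TCZ and 51.2 RPKM in control cells. RPKM holds no TMM factor, so differences between groups are not on the scale of the CPM levels above. Plk1 held rank 16 in TC and rank 26 in TCZ, against rank 8 in control cells. Cdc20 held rank 7 in both treatments and rank 2 in control cells, while Tpx2 (39.1 ± 0.35 RPKM) and Prc1 (38.3 ± 0.26 RPKM; SD, n = 2) were close neighbours below it there. Espl1 held rank 34 in TC, rank 35 in TCZ and rank 33 in control cells. Across the 35 genes, the log2 fold change and gene length had a Spearman correlation of 0.42 in TC and 0.27 in TCZ, against -0.02 and -0.13 over all genes tested. These points come from the same 6 libraries, and longer genes hold more reads.

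In a direct comparison of the treatments, 11 of the 35 genes were higher and 5 lower in TCZ than in TC, and 19 did not pass. Among all genes tested, 28.2% were higher and 27.9% lower, so the share of the 35 that was higher, 31.4%, was near the background in this fit. The share of the 35 that was lower, 14.3%, was below the background. The median of the 35 was 0.09, against 0.02 over all genes tested. By role, 2 of the 3 chromosomal passenger genes were higher in TCZ than in TC, and 1 of the 3 genes of anaphase onset was higher and 1 lower.

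The genes higher in TCZ than in TC were Pttg1 (log2 fold change 0.97 ± 0.28, adjusted p = 0.00479), Aurkb (0.62 ± 0.10, adjusted p = 2.01e-05), Kif20a (0.54 ± 0.08, adjusted p = 9.84e-06), Mad2l1, Incenp, Bub1, Mki67, Cdk1, Top2a, Ccna2 and Nek2. The last 8 had log2 fold changes between 0.24 for Nek2 and 0.41 for Mad2l1. Of these 11, 6 (Aurkb, Kif20a, Mad2l1, Incenp, Cdk1 and Ccna2) were lower than control in both treatments and less so in TCZ. Pttg1, Bub1, Mki67 and Nek2 were lower than control in TC and did not pass in TCZ. The count of 11 was 6 without TC 2 and 7 with no low-count filter, and it was 14 with RLE size factors, 15 with a term for control 2 and TCZ 2, and 16 with the stricter filter, so the comparison with the background depends on the setting. Without TC 2 the calls of Cdk1 (0.22, adjusted p = 0.0998), Ccna2 (0.19, adjusted p = 0.163), Nek2 (0.22, adjusted p = 0.123), Bub1 (0.23, adjusted p = 0.095) and Top2a (0.21, adjusted p = 0.129) were lost. Without TCZ 1 those of Cdk1 (0.22, adjusted p = 0.0687), Nek2 (0.20, adjusted p = 0.153) and Mad2l1 (0.25, adjusted p = 0.0709) were lost, and without TC 1 those of Nek2 (0.23, adjusted p = 0.114) and Top2a (0.28, adjusted p = 0.0523).

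The 5 genes lower in TCZ than in TC were Espl1 (-1.002 ± 0.115, adjusted p = 1.8e-07), Plk1 (-0.74 ± 0.09, adjusted p = 6.76e-07), Foxm1 (-0.62 ± 0.07, adjusted p = 2.64e-07), Cenpa (-0.38 ± 0.10, adjusted p = 0.00211) and Anln (-0.37 ± 0.07, adjusted p = 0.000125). Espl1, Plk1 and Cenpa were lower than control in both treatments and further below it in TCZ. These 5 calls held under each of the alternatives tried. Cdc25c (0.34 ± 0.16, adjusted p = 0.0802), which was called lower than control in TC, passed without TC 1 (0.52, adjusted p = 0.0191) and without TCZ 1 (0.44, adjusted p = 0.0434). Cdc20 (-0.18 ± 0.09, adjusted p = 0.0877) passed without TCZ 1 (-0.33, adjusted p = 0.00673), and Ttk (0.26 ± 0.12, adjusted p = 0.0615) passed without TCZ 2 (0.36, adjusted p = 0.0261). Ttk, Ndc80, Kif2c, Kif11 and Birc5 were called higher in TCZ than in TC with the stricter filter, the first 4 of them also with a term for control 2 and TCZ 2, and Cdc20 was called lower with library totals (-0.24, adjusted p = 0.00865).

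**Figure D5:**
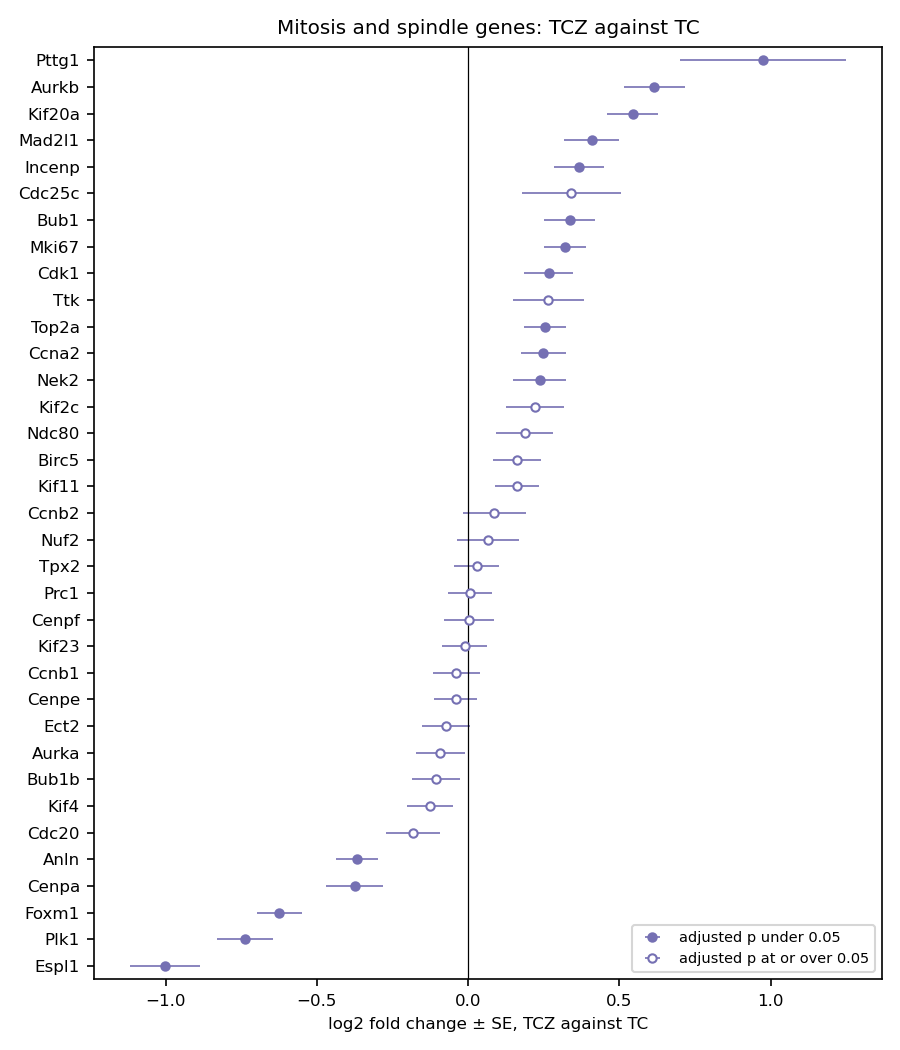
Log2 fold change of each of the 35 genes in TCZ against TC, with standard errors as bars and called genes marked. Pttg1 (0.97), Aurkb (0.62) and Kif20a (0.54) are at the high end, and Espl1 (-1.002), Plk1 (-0.74) and Foxm1 (-0.62) at the low end.

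The promoter letters were set beside the calls. Of the 22 genes with a window that fell in TC, 15 held TTTGAA, as did both genes with a window that rose and 3 of the 4 that did not pass. Either CHR form was held by 17 of the 22, by both that rose and by all 4 that did not pass. Birc5, Ccnb1 and Cenpe held TTTAAA and not TTTGAA, so they count below as genes without TTTGAA. The median log2 fold change in TC was -0.49 for the 20 genes with TTTGAA and -0.40 for the 8 without it. In TCZ the medians were -0.47 and -0.18. For CCAAT the median in TC was -0.37 for the 21 genes with it and -0.75 for the 7 without it, and in TCZ the medians were -0.35 and -0.28. The printed windows were picked because they hold both kinds of element, so their likeness is not a result. Outside them, Anln, which rose in TC, held TTTGAA and no CCAAT. Mad2l1, Nuf2 and Pttg1, which fell in TC, held neither. The RefSeq starts of Anln and Pttg1 lay 527 and 267 bases from the starts in the deposited table, so their windows may miss the promoter in use. A match to these letters is a description of the window and says nothing about whether a factor binds there.

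Other genes of the cell cycle, given from lists, are set beside the 35, and the largest rise and fall in a list leave out genes whose mean level was under 5 CPM. The background for these lists is the share of all genes tested. It was 29.2% lower and 31.6% higher in TC, 28.6% and 31.5% in TCZ, and 27.9% and 28.2% in TCZ against TC. Of 69 other mitosis genes, 36 were lower and 8 higher in TC, and 34 were lower and 7 higher in TCZ, with medians of -0.26 and -0.25. With library totals as the only scaling, 48 were lower and 4 higher in TC, and 49 were lower and 3 higher in TCZ. Ccnf, cyclin F, fell most in TC (-2.22 ± 0.11, adjusted p = 1.93e-13), and Cdc25b, the phosphatase that starts the activation of CDK1, fell most in TCZ (-3.06 ± 0.14, adjusted p = 1.66e-14). Psrc1, a spindle microtubule protein, rose most in TC (0.77 ± 0.08, adjusted p = 8.86e-09), and Cks2, a small CDK-binding subunit, rose most in TCZ (0.47 ± 0.08, adjusted p = 4.62e-05). In TCZ against TC, 15 of the 69 were higher, with Cks2 in the lead (0.72 ± 0.08, adjusted p = 1.77e-07), and 22 were lower, with Cdc25b in the lead (-1.36 ± 0.14, adjusted p = 5.62e-08). The count of 15 was 9 without TC 2, and the 7 higher in TCZ were 4 without control 2 and 4 without TCZ 1.

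Of 20 condensin and cohesin genes, 6 were lower and 2 higher in TC, and 7 were lower and 6 higher in TCZ. The shares lower, 30% in TC and 35% in TCZ, were near the 29.2% and 28.6% over all genes tested. The share higher in TCZ, 30%, was near the 31.5% over all genes, and that in TC was 10% beside 31.6%. In TC the split was 6 lower and 5 higher with RLE size factors, and 11 lower and 2 higher with library totals as the only scaling. Library totals gave 12 lower and 3 higher in TCZ. Nipbl, the cohesin loader, rose in TC (1.14 ± 0.07, adjusted p = 7.24e-12) and in TCZ (0.84 ± 0.07, adjusted p = 1.45e-09). Ncaph2, a condensin II subunit, fell most in TC (-0.93 ± 0.08, adjusted p = 1.09e-09), and Esco1, a cohesin acetyltransferase, fell most in TCZ (-0.91 ± 0.11, adjusted p = 2.32e-07). In TCZ against TC, 9 were higher, led by Esco2, the other acetyltransferase (0.73 ± 0.13, adjusted p = 4.38e-05), and 8 were lower, led by Esco1 (-0.96 ± 0.11, adjusted p = 1.39e-07). Among 16 genes of the anaphase-promoting complex and its regulators, 8 were lower and 5 higher in TC, and 7 were lower and 3 higher in TCZ, or 11 and 1 with library totals as the only scaling. In TC 50% were lower and 31.2% higher, beside 29.2% and 31.6% over all genes tested. In TCZ 43.8% were lower and 18.8% higher, beside 28.6% and 31.5%. Fbxo5, the EMI1 inhibitor of the complex, fell in TC (-1.64 ± 0.12, adjusted p = 1.09e-10) and in TCZ (-2.18 ± 0.13, adjusted p = 3.69e-12). Anapc7, a core subunit, rose in both (1.19 ± 0.08, adjusted p = 2.05e-11 in TC and 1.13 ± 0.08, adjusted p = 5.59e-11 in TCZ). In TCZ against TC, 5 were higher, led by Anapc5 (0.68 ± 0.07, adjusted p = 5.25e-08), and 4 were lower, led by Fzr1, the CDH1 activator (-0.83 ± 0.08, adjusted p = 9.65e-09). These shares, 31.2% higher and 25% lower, were near the 28.2% and 27.9% over all genes tested. The 5 higher were 1 without TC 1, 3 without TC 2, 2 without TCZ 1 and 4 (with 5 lower) with library totals, and the 4 lower were 2 without TC 1.

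Of 15 regulators in the DREAM, MuvB and NF-Y group, 4 were lower and 6 higher in TC, and 7 were lower and 5 higher in TCZ. In TC 26.7% were lower and 40% higher, beside 29.2% and 31.6% over all genes tested. In TCZ 46.7% were lower and 33.3% higher, beside 28.6% and 31.5%. With library totals as the only scaling, 5 were lower and 3 higher in TC, and 9 were lower and 4 higher in TCZ. In DESeq2, 4 were lower and 5 higher in TCZ. In TC, Rbl2, the p130 pocket protein of DREAM, fell most (-1.32 ± 0.10, adjusted p = 2.32e-10) and the NF-Y subunit Nfyb rose most (0.59 ± 0.09, adjusted p = 1.16e-05). In TCZ, the MuvB subunit Lin9 fell most (-0.72 ± 0.12, adjusted p = 1.46e-05) and the NF-Y subunit Nfya rose most (1.01 ± 0.07, adjusted p = 4.43e-11). Rbl2 led the 7 genes higher in TCZ than in TC (0.97 ± 0.10, adjusted p = 7.18e-08) and E2f5 led the 5 lower (-0.78 ± 0.12, adjusted p = 7.9e-06). The 6 higher in TC were 3 without control 2, and the 7 lower in TCZ were 4 without control 1 and 4 without control 2. In TCZ against TC, the 7 higher were 4 without TC 2, and the 5 lower were 3 without TC 1, TC 2 or TCZ 2 and 2 in DESeq2.

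The 15 genes of G1 and S phase entry were mostly lower, 12 in TC and 11 in TCZ, with 2 and 4 higher and medians of -0.82 and -0.52. Above that limit of 5 CPM, Ccnd2, cyclin D2, fell most, in TC (-1.87 ± 0.07, adjusted p = 1.32e-15) and in TCZ (-2.40 ± 0.07, adjusted p = 2.3e-17). Cdk6, its kinase partner, rose in TC (2.02 ± 0.07, adjusted p = 5.87e-16), and Gmnn, geminin, the inhibitor of replication licensing, rose most in TCZ (1.58 ± 0.10, adjusted p = 3.16e-12). In TCZ against TC, 7 were higher, led by Ccne1, cyclin E1 (1.07 ± 0.09, adjusted p = 7.96e-10), and 5 were lower, led by Cdk6 (-1.15 ± 0.07, adjusted p = 1.18e-11). Those 5 were 3 without TC 1, TC 2 or TCZ 2, and the 4 higher in TCZ than in control were 2 with library totals as the only scaling. Of 7 CDK inhibitors, 3 were lower and 2 higher in TC, and 3 were lower and 4 higher in TCZ. Cdkn1a, the p21 protein, rose in TC (1.499 ± 0.076, adjusted p = 1.56e-13) and in TCZ (1.69 ± 0.08, adjusted p = 1.83e-14). Cdkn1b, p27, fell most in TC (-2.06 ± 0.12, adjusted p = 1.08e-12) and Cdkn2c, p18, fell most in TCZ (-1.92 ± 0.15, adjusted p = 1.52e-10). In TCZ against TC, 4 of the 7 were higher, led by Cdkn1c, p57 (0.51 ± 0.09, adjusted p = 5.61e-05), and 0 were lower, with edgeR as with DESeq2. The 4 CDK inhibitors higher in TCZ than in control were 2 without TCZ 1 and 2 with library totals as the only scaling, and the 2 higher in TC were 1 with that scaling. The 4 higher in TCZ than in TC were 1 without TC 1, 2 without TC 2 and 1 without TCZ 1.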

How the data were processed

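Poly(A) RNA was sequenced in 6 libraries, 2 each of TC, TCZ and control fibroblasts. The authors deposited 1 table of raw read counts and RPKM per gene, per the file headers. The deposited RPKM values equalled the counts divided by gene length and library total, within 5e-07, and were used only to order genes. The tools were HISAT2 2.1.0, HTSeq and bcl2fastq, with build mm10, per the submitters' processing notes. The sources used here do not give the strand setting or annotation version, so reads of overlapping genes are uncertain, and 10 of the 35 genes overlap exons of another gene. Coordinates of genes are those of the deposited table.

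The counts were tested with edgeR 4.0.16 (R 4.3.3): filterByExpr by group with a minimum count of 10, TMM scaling, all 6 libraries in 1 model with group as the only factor (3 residual degrees of freedom), the quasi-likelihood test, and Benjamini-Hochberg adjustment over the 18563 genes tested. The biological coefficient of variation was 7.38%. The procedure was tested on simulated counts in which only a small share of genes was changed. That run does not test the scaling where many genes differ, as they do here. Standard errors are the log2 fold change divided by the square root of F. Replicate libraries differed by more than counting noise. From each other list and comparison, the called genes with the largest rise and fall at a mean of at least 5 CPM were named; other genes are named for their place in a list or complex. The members and lists, which include markers of fibroblasts and of epithelial, leukocyte, endothelial and muscle cells, were chosen with earlier results of these data known. Alternatives were DESeq2 1.42.0, limma-voom (limma 3.58.1), RLE size factors, library totals only, no filter on low counts, a stricter one (50 counts in at least 2 libraries), fits of the 2 compared groups alone, a replicate block, a term for the shallower libraries control 2 and TCZ 2, both of these left out, and each library left out in turn.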

Additional observations from a re-analysis of the deposited data

How the results depend on the processing

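Of the called genes, 21 of 30 in TC against control, 20 of 25 in TCZ against control and 10 of 16 in TCZ against TC were called in the same direction under all 16 alternatives. With library totals as the only scaling, the median over all genes moved to -0.11 in TC, -0.15 in TCZ and -0.04 in TCZ against TC. On that scale the 35 genes had 1 higher in TC with a median of -0.64 and 0 higher in TCZ with a median of -0.61, Foxm1 in TC was -0.14, and Mki67 in TCZ was -0.15. With no low-count filter, 1 gene was higher in TCZ and 7 were higher in TCZ against TC. The term for control 2 and TCZ 2 gave a median of 0.17 in TCZ against TC. The labels name no batch, and with both libraries left out the medians were -0.51 in TC and -0.44 in TCZ. Leaving out 1 library at a time gave 1 to 2 genes higher in TC with medians of -0.55 to -0.40, 1 to 2 higher in TCZ with medians of -0.48 to -0.33, and 6 to 12 higher in TCZ against TC with medians of 0.026 to 0.16, the 6 being without TC 2. The cause of these shifts was not tested. Where a gene passed neither way, its sign changed under some alternative in 13, 18 and 32 values of the 3 comparisons. The replicate block gave 2 higher and 28 lower in TC, 2 and 23 in TCZ, and 11 and 6 in TCZ against TC, where Cdc20 passed (-0.19, adjusted p = 0.0423). The labels do not pair the numbers, and deviations of same-numbered libraries correlated at 0.01, 0.12 and -0.02. The low genes Pttg1 and Cdc25c had the largest standard errors of the 35, which hold counting error and the spread between libraries together.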
